A study of Mus musculus with 18 samples.

Results

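Ovaries of untreated 21-day-old female mice labelled Pik3cd-/-, without an intact copy of Pik3cd (3 arrays), were compared with ovaries of untreated females of the same age labelled Pik3cd+/-, which kept 1 copy (3 arrays). The arrays were taken by their titles and make up 6 of the 18 arrays of the series. Every gene whose probe sets carried 1 symbol entered: 18193 genes, of which 12711 passed the filter on dim probe sets and were tested. The other 12 arrays are of the same genotypes given PMSG (10 IU, 44 hours), a gonadotropin that acts like FSH, or oestradiol (E2, 3 injections of 0.03 ml at 24-hour intervals, with ovaries taken at 72 hours), and they share no array with the untreated comparison. All mice were of the mixed C57B6J/S129 background. All 3 control groups carried a mutant copy of Pik3cd, so the comparisons measure the loss of the remaining copy and none is against wild-type ovaries. The labels give the genotype of the whole mouse, and name neither the allele, the part of the gene that was changed, nor how the animals of an array were related. They call the arrays biological replicates, and whether each array held RNA of 1 animal or of a pool is not stated in them. The study was designed around the responses to PMSG and E2, and the untreated ovaries are the starting point of both genotypes.

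The product of Pik3cd is p110 delta, one of the catalytic subunits of class I phosphoinositide 3-kinases. These enzymes phosphorylate a membrane lipid, which recruits the kinase AKT, and AKT in turn keeps FoxO transcription factors out of the nucleus. p110 delta is best known from leukocytes. In the ovary the pathway acts downstream of KIT ligand in the oocyte, where it controls the activation of resting follicles, and downstream of FSH and IGF1 in granulosa cells, where it restrains FoxO1. The ovary of a 21-day-old mouse holds resting and growing follicles and no corpora lutea.

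Signals are intensity units on a linear scale, and differences are Pik3cd-/- minus Pik3cd+/- on the scale of log2 of the signal plus 8.58, ± SE of the limma fit with 3 arrays per group. A gene was called at an adjusted p under 0.05. The median signals of the 6 arrays lay between 49.2 and 50.8, and precision is set by having 3 arrays a group. Each array correlated with the others of its group, on average, at 0.990 to 0.992 for Pik3cd+/- and 0.979 to 0.984 for Pik3cd-/-. Each group held an array that stood apart in a list of genes. In Pik3cd-/- array 2 the 18 tested FSH-responsive granulosa genes had a mean log2 level of 9.21, against 10.11 and 10.04 in its group mates and 10.07 to 10.31 in Pik3cd+/-. In Pik3cd+/- array 2 the 19 tested oviduct genes had a mean of 8.21, against 6.93 and 6.85. Results were therefore also computed without these arrays. Ovarian markers were bright in all 6 arrays: Inha, an inhibin subunit of granulosa cells, had 11440.4, 11599.9 and 12032 intensity units in the Pik3cd+/- arrays and 10991, 7929 and 11599.9 in the Pik3cd-/- arrays, and the zona gene Zp3 had 2862 to 5043 over the 6.

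Of the 6 probe sets for Pik3cd, which lies on chromosome 4, 3 passed the filter. Probe set 1453281_at gave 70.03, 69.8 and 61.4 in the Pik3cd+/- arrays and 28.8, 23.8 and 26.0 in the Pik3cd-/- arrays. The groups did not overlap, and the difference was -1.12 ± 0.11 (adjusted p = 2.9e-04 over all probe sets past the filter). Probe set 1422992_s_at, which was under the filter, gave 26.7, 21.1 and 19.4 in the Pik3cd+/- arrays and 13.5, 12.3 and 14.1 in the Pik3cd-/- arrays, again without overlap (-0.50 ± 0.083, adjusted p = 0.0237 with no filter). The brightest, 1443798_at, used for the gene in the comparison of all genes, gave 3064, 2658 and 3622 in the Pik3cd+/- arrays and 3945, 3423 and 3456 in the Pik3cd-/- arrays. The groups overlapped there (0.22 ± 0.14, adjusted p = 0.413), and the other 3 probe sets did not pass either. Which of the 6 lie in the changed part of the gene is not known, so a set that did not differ says nothing about the labels.

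**Figure D1:**
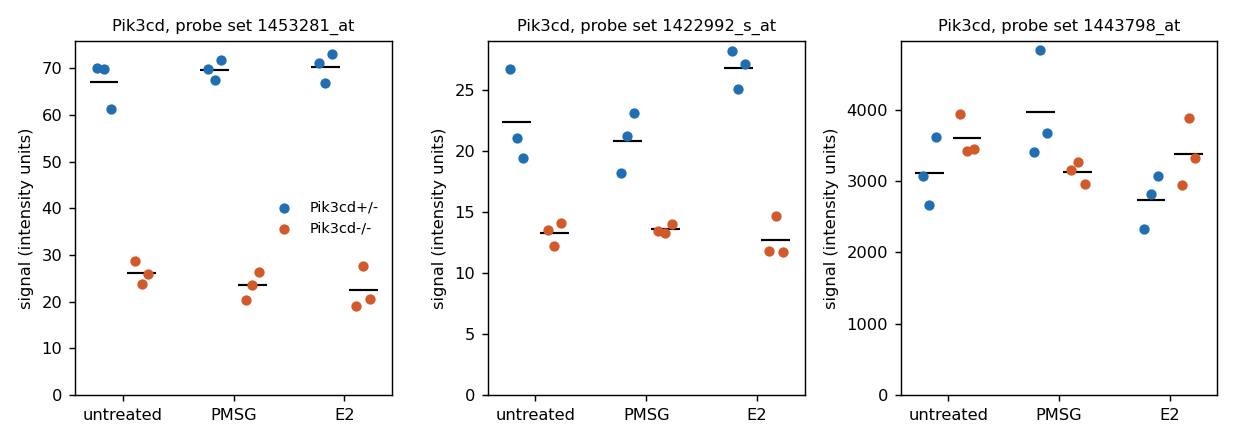
Signal in intensity units of 3 of the 6 Pik3cd probe sets in each of the 18 arrays (points), by treatment and genotype, with the mean of each group of 3 as a bar. In the first and the second probe set all Pik3cd-/- arrays lie below all Pik3cd+/- arrays of the same treatment, and in the third, the brightest, the untreated genotypes overlap.

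Of 12711 genes, 277 were called (2.18%): 107 were higher in Pik3cd-/- ovaries (0.842%) and 170 were lower (1.34%). At an unadjusted p under 0.05 there were 2593 genes, 1111 higher and 1482 lower. The difference was at least 2-fold in 23 of the higher and 27 of the lower genes, and its median size among the calls was 0.63 on the log2 scale. Over all tested genes the median difference was -0.011 and 47.8% of the differences were positive. The single arrays of both genotypes did not overlap in 107 of the 107 higher and in 169 of the 170 lower genes, the exception being Cyfip2. Over all genes tested, 12.5% separated in the higher and 14.1% in the lower direction. Because the called genes were selected on these same arrays, their separation follows largely from the selection and is no independent evidence. This also holds where single called genes are said below not to overlap in untreated ovaries. The smallest adjusted p was that of Bcan, which encodes the proteoglycan brevican: its signals were 102, 131 and 99.8 intensity units in the Pik3cd+/- arrays and 226, 239 and 244 in the Pik3cd-/- arrays (1.04 ± 0.12, adjusted p = 0.00221). Among the called genes, 133 had another probe set past the filter, and 201 of these 211 probe sets differed in the same direction, 41 of them also past the threshold over all probe sets (0.534% of all probe sets past the filter were called higher and 0.874% lower).

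These calls rested on few arrays. The number fell to 1 (Bcan) without Pik3cd+/- array 2 and to 4 without Pik3cd-/- array 2 (Bcan, Ddx4, Myc and 2210409E12Rik). It was 20 and 86 without Pik3cd+/- arrays 1 and 3, and 206 and 676 without Pik3cd-/- arrays 1 and 3. In each of these 6 fits every called gene that was still tested, 276 or 277 of them, kept its sign and an unadjusted p under 0.05, but only Bcan was called in all 6. The calls were chosen on these same arrays, so keeping the sign and that p is no independent evidence. Pik3cd-/- array 2 was the array farthest from the Pik3cd+/- mean in 62.6% of the higher and 71.2% of the lower genes. An adjusted p given for a single gene therefore holds for all 6 arrays together, with the spread estimated over all 18 arrays. Fitted alone, the 6 untreated arrays gave 109 calls, of which 64 were among the 277. With 1 array left out nearly all calls named here ended in at least 1 fit.

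**Figure D2:**
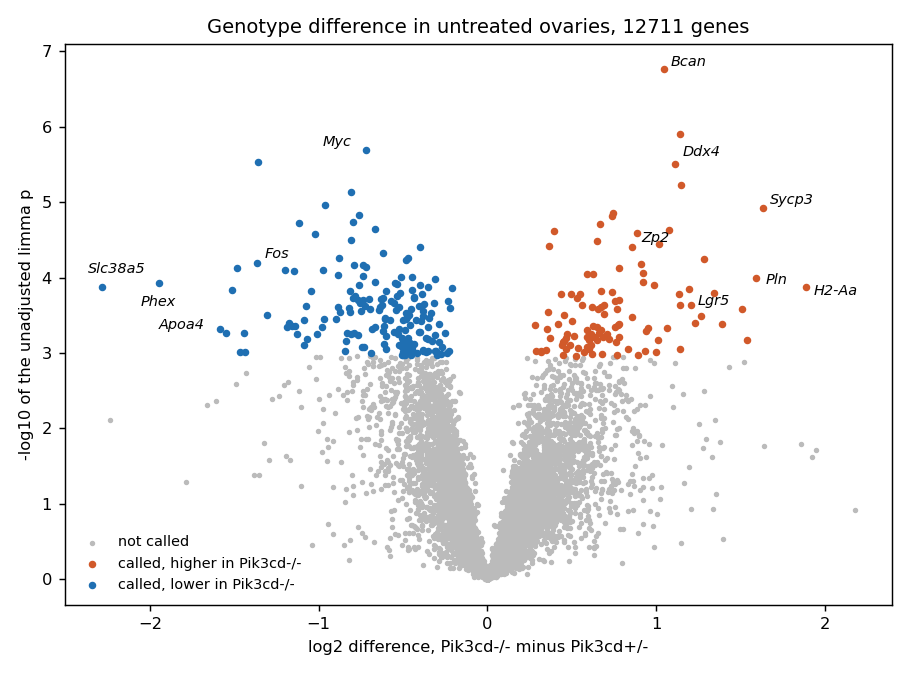
Difference between the genotypes in untreated ovaries (x axis, log2, Pik3cd-/- minus Pik3cd+/-) against -log10 of the unadjusted limma p (y axis) for 12711 genes. The 107 called higher genes (orange) and the 170 called lower genes (blue) lie above all other genes, with Bcan at the smallest p, Slc38a5 as the lowest called gene (-2.28) and H2-Aa as the highest (1.89). Grey genes were not called, some of them at differences as large.

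Among the gene lists, that of oocyte genes held the most genes called higher. All 30 tested members of the oocyte list had a positive difference and 10 of them were called, with none lower, where 0.842% of all genes were called higher. The median difference of the 30 was 0.59, against -0.011 over all genes. In 28 of the 30 the lowest Pik3cd-/- array lay above the highest Pik3cd+/- array, as it did in 12.5% of all genes. The mean log2 level of the list was 10.00, 9.95 and 9.83 in the Pik3cd+/- arrays and 10.41, 10.69 and 10.55 in the Pik3cd-/- arrays, so that the groups did not overlap and array 2 of Pik3cd-/- was the highest. In RNA of whole ovaries, more oocytes and more RNA per oocyte cannot be told apart, nor can fewer cells of another type and less RNA per cell. The count fell to 0 without Pik3cd+/- array 2 and to 1 (Ddx4) without Pik3cd-/- array 2, while the median stayed at 0.61 and 0.51. The oocyte list was written with the genotype difference in these arrays known, so its direction is not independent evidence.

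Among the transcription factors of the oocyte, Figla, which switches on the zona pellucida genes, had 266, 198 and 137 intensity units in the Pik3cd+/- arrays and 294, 521 and 664 in the Pik3cd-/- arrays (1.23 ± 0.28, adjusted p = 0.0346). Sohlh1, needed for the growth of early follicles, had 109.8, 81.2 and 41.7 against 133, 205 and 236 (1.26 ± 0.28, adjusted p = 0.0318). In both, Pik3cd+/- array 3 was the lowest of all 6 and Pik3cd-/- array 3 the highest, and the nearest arrays of the groups were close. Sohlh2, its partner, gave 0.67 ± 0.14 (adjusted p = 0.0274), and Nobox, a homeobox factor of the oocyte, gave 712, 622 and 549 against 899, 1187 and 1031 (0.72 ± 0.17, adjusted p = 0.0404). Lhx8, another homeobox factor, did not pass (0.67 ± 0.19, adjusted p = 0.0714).

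Of the zona pellucida proteins, which form the coat of the oocyte, Zp2 had 1857, 1739 and 1434 intensity units in the Pik3cd+/- arrays and 2626, 3595 and 2942 in the Pik3cd-/- arrays (0.86 ± 0.15, adjusted p = 0.0193). Zp3 gave 2928, 3213 and 2862 against 4625, 5043 and 4807 (0.68 ± 0.16, adjusted p = 0.0396). In both the lowest Pik3cd-/- array lay above the highest Pik3cd+/- array, as it did in Zp1, which did not pass (0.78 ± 0.22, adjusted p = 0.0722). The maternal genes Padi6 and Khdc3, parts of the complex under the oocyte's membrane, gave 0.76 ± 0.17 and 0.78 ± 0.17 (adjusted p = 0.0353 and 0.0353). Nlrp5 and Ooep of the same complex gave 0.78 ± 0.22 and 0.65 ± 0.19 and missed the threshold (adjusted p = 0.0674 and 0.0722). Dppa3, which protects methylation in the early embryo, had 2138, 1922 and 1487 against 2828, 4172 and 3547 (0.92 ± 0.18, adjusted p = 0.0274). The growth factors that the oocyte secretes, Gdf9 (5349, 5414 and 5176 against 6728, 8190.0 and 6818, 0.44 ± 0.17, adjusted p = 0.152) and Bmp15 (0.40 ± 0.26, adjusted p = 0.409), did not pass.

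Genes of meiosis and of germline RNA were looked at with a list that was added after the values were seen and gets no test. Of its 25 tested members, 8 were called higher and 1 lower, where 0.842% and 1.34% of all genes were, and the median was 0.49. Ddx4, the germ cell RNA helicase that is also in the oocyte list, had 194, 161 and 163 intensity units in the Pik3cd+/- arrays and 395, 358 and 395 in the Pik3cd-/- arrays (1.11 ± 0.16, adjusted p = 0.00782). The groups were far from overlapping, and Ddx4 was called in 5 of the 6 fits with an array left out. Sycp3, of the axis of meiotic chromosomes, had 278, 252 and 147 against 562, 633 and 937 (1.63 ± 0.26, adjusted p = 0.0164). Syce1 of the synaptonemal complex gave 1.01 ± 0.24, the meiotic cohesin subunit Smc1b 1.06 ± 0.24 and the PIWI protein Piwil2 1.14 ± 0.28 (adjusted p = 0.0408, 0.0354 and 0.0471). Mael, which acts in the silencing of transposons, had 189, 165 and 83.3 against 276, 307 and 421 (1.21 ± 0.25, adjusted p = 0.0286), and Gtsf1, a partner of PIWI proteins, gave 0.78 ± 0.16, adjusted p = 0.0283. The exception was Tex14, of the bridges between germ cells, which fell: 1548, 1166 and 758 intensity units in the Pik3cd+/- arrays and 260.4, 418 and 601 in the Pik3cd-/- arrays (-1.44 ± 0.33, adjusted p = 0.0377). Tex15 was in the same direction without passing (-0.82 ± 0.22, adjusted p = 0.0582).

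Sequences before the start sites are shown for 4 of these called genes because Figla and Sohlh1 encode factors of a family that binds E-boxes. They are the 250 bases before the RefSeq start on GRCm38.p6, written on the gene's strand from 5′ to 3′, with each CACGTG, an E-box that is its own reverse complement, in capitals. This motif and the set shown were chosen after the values were seen. All 4 genes shown hold the motif, so the set does not measure how often called genes hold it. Regulation of these genes by Figla or Sohlh1 was not tested.
Sycp3, chr10:88459337-88459586, plus strand: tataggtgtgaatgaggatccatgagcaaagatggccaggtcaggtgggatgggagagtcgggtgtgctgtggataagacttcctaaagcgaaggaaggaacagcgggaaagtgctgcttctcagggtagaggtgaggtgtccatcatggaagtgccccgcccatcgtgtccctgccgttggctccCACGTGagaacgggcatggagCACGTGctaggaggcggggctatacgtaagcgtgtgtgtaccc
Sohlh1, chr2:25847249-25847498, minus strand: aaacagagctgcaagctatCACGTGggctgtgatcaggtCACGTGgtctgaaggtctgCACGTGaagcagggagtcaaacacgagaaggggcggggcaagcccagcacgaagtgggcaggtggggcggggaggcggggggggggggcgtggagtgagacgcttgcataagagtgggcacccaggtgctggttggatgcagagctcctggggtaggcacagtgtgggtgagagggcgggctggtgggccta
Ddx4, chr13:112652311-112652560, minus strand: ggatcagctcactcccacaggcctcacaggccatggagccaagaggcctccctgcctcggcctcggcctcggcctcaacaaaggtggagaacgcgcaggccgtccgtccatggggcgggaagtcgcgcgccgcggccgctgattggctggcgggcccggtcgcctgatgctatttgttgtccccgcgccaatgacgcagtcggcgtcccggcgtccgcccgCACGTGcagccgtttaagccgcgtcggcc
Zp3, chr5:135979855-135980104, plus strand: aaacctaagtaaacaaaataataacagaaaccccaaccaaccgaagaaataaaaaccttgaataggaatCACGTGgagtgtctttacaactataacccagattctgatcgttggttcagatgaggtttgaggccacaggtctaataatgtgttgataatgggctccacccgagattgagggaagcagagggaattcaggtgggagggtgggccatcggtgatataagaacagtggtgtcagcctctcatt
The capitals begin 64 and 43 bases before the start in Sycp3, 231, 211 and 192 in Sohlh1, 29 in Ddx4 and 181 in Zp3. CACGTG occurred in 3 of the 8 called oocyte list genes that had a window, in 11.2% of the 107 windows of called higher genes, in 11.6% of the 164 windows of called lower genes, in 8.21% of the windows of tested genes and in 6.02% of all 32851 windows. The E-box CAGGTG, searched on both strands as CAGGTG or CACCTG, was in 32.7% of the windows of called higher genes, 15.2% of those of called lower genes, 16.5% of those of tested genes and 17.2% of all. It was in 6 of the 8 called oocyte list genes. A window was found for 87 of the 107 higher and 131 of the 170 lower genes, and some genes had several starts. A match describes these letters only.

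**Figure D3:**
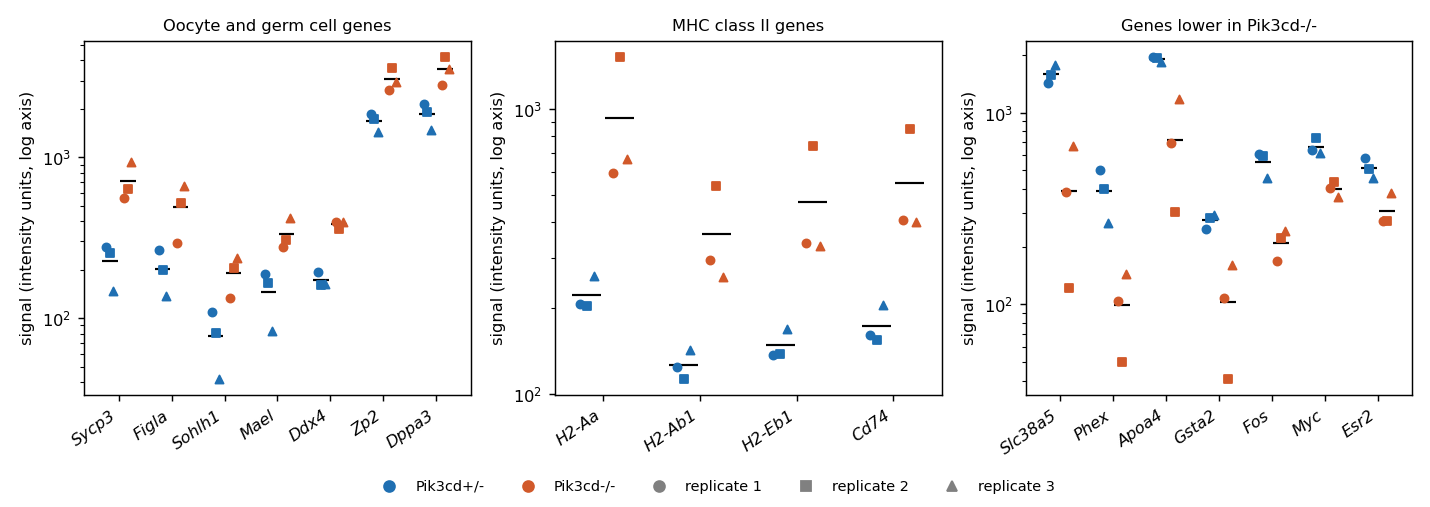
Signal in intensity units (log axis) of 18 called genes in the 6 untreated arrays, with Pik3cd+/- in blue and Pik3cd-/- in orange, the replicate by symbol and the mean of each group of 3 as a bar. In all 18 genes the genotypes do not overlap, which is no independent evidence, since these genes were called on the same arrays. Pik3cd-/- array 2 (squares) is the highest array for the 4 MHC class II genes and the lowest for Slc38a5, Phex, Apoa4 and Gsta2.

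KIT ligand and its receptor link granulosa cells to the oocyte through phosphoinositide 3-kinase. Kitl, the ligand made by granulosa cells, had 2261, 2041 and 2390.4 intensity units in the Pik3cd+/- arrays and 3149, 3781 and 3332 in the Pik3cd-/- arrays (0.61 ± 0.14, adjusted p = 0.0377). The genotypes did not overlap, and its other 3 probe sets past the filter gave 0.61, 0.62 and 0.75, of which the last was called (adjusted p = 0.0438). Kit, the receptor on the oocyte, had 396, 403 and 364 against 492, 547 and 606 and did not pass (0.49 ± 0.21, adjusted p = 0.198), although its arrays did not overlap.

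Of 8 tested genes of MHC class II antigen presentation 4 were called higher, where 0.842% of all genes were, and none lower, and the median was 1.14. H2-Aa, the alpha chain of the A molecule, had 206, 203 and 260.0 intensity units in the Pik3cd+/- arrays and 595, 1513 and 667 in the Pik3cd-/- arrays (1.89 ± 0.38, adjusted p = 0.0274). Its beta chain H2-Ab1 had 124, 113 and 143 against 296, 537 and 257 (1.39 ± 0.31, adjusted p = 0.0349), and H2-Eb1, the beta chain of the E molecule, had 137, 138 and 169 against 339, 739.7 and 331 (1.51 ± 0.32, adjusted p = 0.0287). In all 3 the Pik3cd-/- arrays lay above the Pik3cd+/- arrays, with array 2 far above its group mates. Cd74, the invariant chain that guides class II molecules to the endosome, had 161, 155 and 205 against 406, 847 and 401 (1.54 ± 0.36, adjusted p = 0.0409). Ctss, the protease that degrades it, and H2-DMa, which helps to load peptides, gave 0.90 ± 0.35 and 0.43 ± 0.18 without passing (adjusted p = 0.166 and 0.195). Cd83 gave -0.29 ± 0.35 (adjusted p = 0.689). The probe sets of H2-Aa and H2-Ab1 are of the types _x_at and _s_at, whose probes can match related transcripts. The other probe sets of H2-Aa past the filter, also of these types, gave 1.70 and 1.51 (adjusted p = 0.0345 and 0.0338). Those of H2-Ab1 gave 1.39, which was called (adjusted p = 0.0357), and 0.86, which was not (adjusted p = 0.0652). Without Pik3cd-/- array 2 the count of 4 fell to 0 and the list median to 0.83, and without Pik3cd+/- array 2 they were 0 and 1.18.

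None of the 21 tested macrophage genes was called, where 2.18% of all genes were. Their differences were positive in 21 of 21, with a median of 0.55. The arrays did not overlap in 11 of these genes, where 12.5% of all genes separated in this direction. Their mean log2 level was 7.07, 7.24 and 6.96 in the Pik3cd+/- arrays and 7.48, 8.04 and 7.24 in the Pik3cd-/- arrays, again highest in Pik3cd-/- array 2, and the median was 0.23 without that array. Csf1r, the receptor of macrophage growth factor, had 461, 457 and 454 against 793, 1236 and 609 (0.87 ± 0.42, adjusted p = 0.258), Adgre1, the F4/80 antigen, 47.7, 54.9 and 38.5 against 71.9, 85.2 and 56.9 (0.52 ± 0.28, adjusted p = 0.304) and the complement gene C1qa 182, 199 and 170.3 against 281, 469 and 232 (0.74 ± 0.35, adjusted p = 0.247). Of the B cell, T cell and NK cell genes 20 were on the array and 6 passed the filter, with 0 called, beside 2.18% of all genes. These 6 had a median of 0.12 and mean levels of 6.48, 6.50 and 6.53 against 6.47, 6.99 and 6.56. The B cell and T cell receptor genes Cd79a, Cd79b, Cd3d and Cd3g of this list stayed under the filter. Ptprc, the common leukocyte antigen, had 71.7, 72.4 and 73.5 against 121, 200.2 and 120.5 (0.90 ± 0.36, adjusted p = 0.176). None of the 5 tested neutrophil and mast cell genes was called, beside the same 2.18%, with mean levels of 6.56, 7.67 and 6.71 against 6.73, 6.98 and 6.67. In the macrophage mean the lowest Pik3cd-/- array was level with the highest Pik3cd+/- array. The part of a larger number of leukocytes in the class II result was not tested.

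The 250 bases before the RefSeq starts of H2-Aa and H2-Eb1 (GRCm38.p6) are shown as the pair of class II genes with the inverted CCAAT box of class II promoters, GATTGG or its reverse complement CCAATC, in capitals.
H2-Aa, chr17:34287824-34288073, minus strand: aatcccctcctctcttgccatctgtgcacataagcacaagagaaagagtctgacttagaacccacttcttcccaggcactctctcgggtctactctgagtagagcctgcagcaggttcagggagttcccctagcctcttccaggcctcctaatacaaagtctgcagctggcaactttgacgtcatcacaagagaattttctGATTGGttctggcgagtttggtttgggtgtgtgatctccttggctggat
H2-Eb1, chr17:34305617-34305866, plus strand: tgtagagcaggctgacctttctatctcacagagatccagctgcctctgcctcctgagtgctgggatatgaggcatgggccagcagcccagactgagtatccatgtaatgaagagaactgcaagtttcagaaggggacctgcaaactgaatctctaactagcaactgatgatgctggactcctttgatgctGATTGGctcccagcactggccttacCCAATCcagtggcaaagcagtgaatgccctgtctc
The capitals begin 49 bases before the start in H2-Aa and 60 and 35 bases before it in H2-Eb1. The motif was chosen after the values were seen. It was in 13.1% of the windows of called higher genes, 20.7% of those of called lower genes, 18.4% of those of tested genes and 14.6% of all windows.

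Interferon response genes, which leukocytes and stroma can switch on, gave 1 call among 23 tested members, where 2.18% of all genes were called. Their median was 0.00065. Gbp2, a GTPase induced by interferon, had 264, 245 and 253 intensity units in the Pik3cd+/- arrays and 430.5, 707 and 439 in the Pik3cd-/- arrays (0.99 ± 0.20, adjusted p = 0.0274), and no overlap. Bst2 and Cmpk2 gave -0.46 ± 0.13 and 0.62 ± 0.25 (adjusted p = 0.0768 and 0.171), and another probe set for Cmpk2 past the filter gave -0.0052. The Gbp2 probe set is of the type _x_at. H2-K1, a class I MHC gene, and Lcp1, the leukocyte plastin, were also called (0.68 ± 0.17, adjusted p = 0.0496 and 0.65 ± 0.15, adjusted p = 0.0408) and were picked out after their values were seen.

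Of the other large rises, 3 belonged to no list. Pln, phospholamban, which regulates the calcium pump of the sarcoplasmic reticulum, had 85.7, 119.6 and 94.7 intensity units in the Pik3cd+/- arrays and 255, 319 and 390.4 in the Pik3cd-/- arrays (1.60 ± 0.31, adjusted p = 0.0264). Mtmr7, a phosphatase of phosphoinositides of the myotubularin family, had 145, 195 and 176 against 487, 401 and 454 (1.34 ± 0.27, adjusted p = 0.0274), but its other probe set past the filter gave 0.56 and was not called (adjusted p = 0.0809). Pkib, an inhibitor of protein kinase A, had 35.9, 23.6 and 22.8 against 69.7, 67.8 and 73.3 (1.15 ± 0.17, adjusted p = 0.0127). In each the lowest Pik3cd-/- array was well above the highest Pik3cd+/- array, and Pkib stayed called in 4 of the 6 fits with an array left out, Pln in 2 and Mtmr7 in 1. Lgr5, a receptor of R-spondins and marker of the ovarian surface epithelium, had 55.5, 53.3 and 57.4 against 132, 154 and 129 (1.19 ± 0.24, adjusted p = 0.0274). The vasodilator peptide Adm gave 0.95 ± 0.22, adjusted p = 0.0354, with another probe set at 0.91 that missed the threshold (adjusted p = 0.0528). Col18a1, a collagen of basal laminae, had 896, 821 and 749 against 1276, 1601 and 1273 (0.74 ± 0.12, adjusted p = 0.0164).

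The largest called fall was that of Slc38a5, a glutamine and amino acid transporter, which had 1423, 1573 and 1765 intensity units in the Pik3cd+/- arrays and 383, 122 and 671 in the Pik3cd-/- arrays (-2.28 ± 0.46, adjusted p = 0.0274). Slc6a15, a transporter of neutral amino acids, had 523, 464 and 403 against 158, 78.7 and 275 (-1.55 ± 0.36, adjusted p = 0.0377). Both separated the genotypes, with Pik3cd-/- array 2 the lowest and array 3 the nearest to Pik3cd+/-. Phex, an endopeptidase of phosphate balance, had 503, 399.8 and 267 against 104, 49.8 and 144 (-1.95 ± 0.38, adjusted p = 0.0274). Apoa4, an apolipoprotein, had 1937, 1923 and 1839 against 691, 302 and 1173 (-1.59 ± 0.36, adjusted p = 0.0363), and its other probe set past the filter gave -1.64 (adjusted p = 0.0364). Gsta2, a glutathione transferase with close paralogs that its probes may share, had 248, 283 and 293 against 108, 40.7 and 161 (-1.51 ± 0.30, adjusted p = 0.0274). The order of the 3 Pik3cd-/- arrays was the same in these 5 genes, array 2 lowest and array 3 highest.

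Further large falls were those of Sel1l3 (1019, 887 and 909 against 368, 187 and 512, -1.49 ± 0.28, adjusted p = 0.025) and Cables1, an adaptor of cyclin-dependent kinases (3278, 2589 and 2323 against 914, 1015 and 1728, -1.20 ± 0.23, adjusted p = 0.0253). Lrrc2 gave -1.47 ± 0.36, Mpped2, of the metallophosphoesterases, -1.44 ± 0.36 and Fam78a -1.31 ± 0.28 (adjusted p = 0.0476, 0.0475 and 0.0309). Cables1, Lrrc2 and Mpped2 each had another probe set past the filter, at -0.65, -1.21 and -1.36, and none of these was called (adjusted p = 0.27, 0.129 and 0.0597). Among the 12 largest called falls, Phex, Sel1l3, Cables1 and Fos were called in 3 of the 6 fits with an array left out, and the others in 1 or 2.

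The immediate early genes, which growth factor signals switch on within minutes, had 2 members called lower of 21 tested, where 1.34% of all genes were, and none higher, with a median of -0.13. Fos, a subunit of AP-1, had 611, 592 and 455 intensity units in the Pik3cd+/- arrays and 168, 221 and 241 in the Pik3cd-/- arrays (-1.37 ± 0.25, adjusted p = 0.0247). Myc, a transcription factor of growth and division, had 639.9, 737 and 617 against 406, 432 and 364 (-0.72 ± 0.098, adjusted p = 0.00782), and it was called in 5 of the 6 fits with an array left out. In both genes the groups were apart by more than the range of either. Ccn2, connective tissue growth factor, and Fosl2 gave -0.70 ± 0.22 and -0.44 ± 0.14 and did not pass (adjusted p = 0.0869 and 0.0934). Jun, Junb and Egr1 gave 0.0058, -0.17 and -0.42, with adjusted p-values from 0.299 to 0.987, and Dusp1, the phosphatase that switches off MAP kinases, gave 0.50 ± 0.19, adjusted p = 0.151.

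Genes of the cell cycle and DNA replication leaned lower: 2 of 38 tested members were called lower, where 1.34% of all genes were, and none higher. Their median was -0.24, 32 of 38 were negative, and in 18 all Pik3cd-/- arrays lay below all Pik3cd+/- arrays, where 14.1% of all genes separated this way. Mcm7, of the replicative helicase, had 3431, 3272 and 3359.6 intensity units in the Pik3cd+/- arrays and 2663, 2486 and 2984 in the Pik3cd-/- arrays (-0.31 ± 0.076, adjusted p = 0.0475), and its other 3 probe sets past the filter ran from -0.41 to -0.30 with none called. Kif20a, a kinesin of cytokinesis, had 360.4, 348 and 284 against 232, 234 and 249 (-0.45 ± 0.11, adjusted p = 0.0496). In both genes the groups did not overlap. Ccnb2, a mitotic cyclin, had 1589, 1332 and 1336 against 885, 796 and 998 without passing (-0.66 ± 0.17, adjusted p = 0.0503), and the proliferation marker Mki67 gave -0.62 ± 0.19, adjusted p = 0.0808. The inhibitor Cdkn1c went the other way, at 0.66 ± 0.20, adjusted p = 0.0859. The mean log2 level of the list was 9.71, 9.63 and 9.66 in the Pik3cd+/- arrays and 9.43, 9.26 and 9.60 in the Pik3cd-/- arrays, with Pik3cd-/- array 2 the lowest and array 3 just under Pik3cd+/-. Outside the list, and picked out after their values were seen, Cdk4 (-0.24 ± 0.059) and the nucleolar genes Nop58 (-0.38 ± 0.093), Fbl (-0.34 ± 0.075), Gar1 (-0.36 ± 0.090) and Nop2 (-0.29 ± 0.065) were called lower, each with a small difference (adjusted p from 0.032 to 0.0482).

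Granulosa cell genes of small follicles gave 1 call in each direction among 21 tested members, Kitl being the higher one. Over all genes 0.842% were called higher and 1.34% lower. Esr2, the oestrogen receptor beta of granulosa cells, was lower, with 580.5, 508 and 455 intensity units in the Pik3cd+/- arrays and 271, 271 and 381 in the Pik3cd-/- arrays (-0.74 ± 0.15, adjusted p = 0.0283), and the groups did not overlap. The list median was -0.31, and -0.050 without Pik3cd-/- array 2. Wt1, a transcription factor of early granulosa cells and of the surface epithelium, had 802, 803 and 785 against 1273, 1261 and 1041 (0.57 ± 0.15, adjusted p = 0.0594). Foxl2, which maintains granulosa identity, gave 0.19 ± 0.13, adjusted p = 0.445, and Amh, anti-Müllerian hormone of growing follicles, gave -0.33 ± 0.13, adjusted p = 0.17. The BMP receptors Bmpr1b and Bmpr2, which were picked out after their values were seen, fell by 0.73 ± 0.14 and 0.51 ± 0.13 (adjusted p = 0.0247 and 0.0496).

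No FSH-responsive granulosa gene of 18 tested was called, where 2.18% of all genes were, and the median was -0.27. Inhba, an activin and inhibin subunit, had 1236, 2189 and 2520.4 intensity units in the Pik3cd+/- arrays and 2928, 273 and 2066 in the Pik3cd-/- arrays, so that 1 of the 3 Pik3cd-/- arrays was far below the others (-0.67 ± 0.66, adjusted p = 0.601). Inhbb had 4766, 4383 and 5239.7 against 5452, 1146 and 5618 (-0.54 ± 0.46, adjusted p = 0.529) and Nap1l5 3549, 2956 and 4009 against 3019, 308 and 2649 (-1.35 ± 0.61, adjusted p = 0.223). In all 3 genes the low array was Pik3cd-/- array 2, and without it Inhba and Inhbb were positive, at 0.37 and 0.21. Fshr, the FSH receptor, had 194, 183 and 234 against 106, 74.2 and 122 without overlap (-0.98 ± 0.30, adjusted p = 0.0875), and Fst, follistatin, which binds activin, 3657, 3602 and 3899 against 2394, 998 and 2796 (-0.98 ± 0.33, adjusted p = 0.107). The cyclin Ccnd2 gave -0.46 ± 0.12, adjusted p = 0.0615, and Inha -0.22 ± 0.12, adjusted p = 0.32. The part of the stage of the follicles in each ovary was not tested.

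Steroid synthesis and cholesterol genes gave no call, where 2.18% of all genes were called. The 13 tested theca and steroidogenic genes had a median of -0.061, and the 22 cholesterol genes one of -0.086, with Fdft1, squalene synthase, at 0.40 ± 0.19, adjusted p = 0.239. Star, Cyp11a1 and Cyp17a1, which carry out the first steps from cholesterol to androgen, gave 0.0056 ± 0.56, -0.35 ± 0.46 and -0.74 ± 0.61 (adjusted p = 0.997, 0.713 and 0.521), with array values of Cyp17a1 from 137 to 666. Hsd3b1 gave -0.061 ± 0.13, adjusted p = 0.837, and the steroid receptors Esr1 and Pgr gave 0.19 ± 0.23 and 0.34 ± 0.59 (adjusted p = 0.689 and 0.788). The SEs of Star, Cyp17a1 and Pgr were wide, and a call needed a difference of several SEs, so large differences could be missed. Nr5a1, which regulates steroidogenic genes, and Nr4a1 gave -0.32 ± 0.15 and -0.28 ± 0.16 (adjusted p = 0.251 and 0.356). Akr1c18, which inactivates progesterone, gave 0.94 ± 0.29, adjusted p = 0.0847. The 20 tested genes of apoptosis and atresia had 0 calls, beside the same 2.18%, and a median of -0.011. Of the BCL2 family members, Bok gave -0.51 ± 0.13, Bcl2 0.51 ± 0.14 and Mcl1 -0.27 ± 0.075 (adjusted p = 0.0533, 0.061 and 0.0649). The other probe sets for Mcl1 past the filter gave 0.081, -0.063, 0.16, 0.081 and 0.12, so the probe sets of this gene disagreed. The 22 tested genes of glycolysis and hypoxia had 1 call, Adm, where 2.18% of all genes were called, and a median of -0.013. Of these, Ddit4, an inhibitor of mTOR, gave 0.48 ± 0.14, adjusted p = 0.0722 and Pfkp, a phosphofructokinase, -0.55 ± 0.14, adjusted p = 0.0503.

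None of the 30 tested genes from the class I subunits to mTOR was called in either direction, where 2.18% of all genes were called. A count of 0 in a list of this size is near that share. The median was -0.030, and the differences ran from -0.46 to 0.49. Among the catalytic subunits, Pik3ca (p110 alpha) had 606, 534 and 507 intensity units in the Pik3cd+/- arrays and 520.1, 600.5 and 550.1 in the Pik3cd-/- arrays (0.022 ± 0.096, adjusted p = 0.922), Pik3cg (p110 gamma) gave -0.46 ± 0.28, adjusted p = 0.375, and Pik3cb was under the filter. Pik3r1, the regulatory subunit p85 alpha, was the highest of the list, with 1535, 1372 and 1543 against 1826, 2519.6 and 1963 (0.49 ± 0.15, adjusted p = 0.0877): the genotypes did not overlap, and the difference did not pass. Akt1 gave -0.18 ± 0.064, adjusted p = 0.139, Akt2 0.088 ± 0.073, adjusted p = 0.527 and Mtor 0.25 ± 0.10, adjusted p = 0.168. Eif4ebp2, a repressor of translation under mTOR, gave -0.34 ± 0.10, adjusted p = 0.0797, and its other probe sets past the filter gave -0.015 and -0.070. These are RNA levels, and the activity of the pathway was not measured.

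FoxO factors and their target genes had no call among 24 tested, where 2.18% of all genes were called, so a count of 0 is near that share. Their median was -0.022, with differences from -0.58 to 0.35. Foxo1, the FoxO factor of granulosa cells, was the lowest, with 3787, 3837 and 3735 intensity units in the Pik3cd+/- arrays and 2450.2, 2104 and 3136 in the Pik3cd-/- arrays (-0.58 ± 0.15, adjusted p = 0.0594), and the arrays did not overlap. It passed with quantile normalization (adjusted p = 0.0465). The other 2 probe sets for Foxo1 past the filter gave -0.76 and -0.80 and were both called over all probe sets (adjusted p = 0.049 and 0.0448), so whether this gene counts as called depends on the probe set. Foxo3, that of the oocyte, had 872, 915 and 837 against 961, 1096 and 912 (0.17 ± 0.088, adjusted p = 0.278). The target genes Cdkn1a and Sesn3 gave 0.31 ± 0.11 and 0.28 ± 0.12 (adjusted p = 0.134 and 0.205), and Cdkn1b and Bcl2l11 gave 0.21 ± 0.15 and -0.023 ± 0.18 (adjusted p = 0.439 and 0.957). GTAAACA, the FoxO motif, searched on both strands in the 250 bases before the start sites, was in 1.87% of the windows of called higher genes, 2.44% of those of called lower genes, 2.12% of those of tested genes and 3.17% of all windows.

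Insulin and IGF genes had 1 call of 17, where 2.18% of all genes were called. Igfbp5, an IGF binding protein, had 3305, 3448 and 4426 intensity units in the Pik3cd+/- arrays and 6256, 6109 and 5362 in the Pik3cd-/- arrays (0.67 ± 0.14, adjusted p = 0.0286), without overlap. Another probe set for it past the filter gave 0.073 (adjusted p = 0.798), so the probe sets of this gene disagreed. Igfbp3 (428, 304 and 767 against 1354, 1873 and 671, 1.35 ± 0.44, adjusted p = 0.101) and Igf2 (363, 288 and 367 against 643, 978 and 408, 0.90 ± 0.32, adjusted p = 0.129) did not pass, and the genotypes overlapped in Igfbp3 but not in Igf2. Igf1 gave 0.013 ± 0.20, adjusted p = 0.977. Grb14, an adaptor that restrains the insulin receptor and was picked out after its value was seen, was lower, with 4939, 4405 and 3659.7 against 2092, 2314 and 1993 (-1.01 ± 0.23, adjusted p = 0.0377).

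Markers of other tissues that an ovary sample can hold were read beside these results, and beside the 2.18% of all genes that were called. Ovarian surface epithelium genes had 1 call of 16 (Lgr5), a median of 0.49, 15 of 16 positive and mean levels of 8.14, 8.19 and 8.24 against 8.66, 8.96 and 8.52, so the genotypes did not overlap. Ildr2 of this list gave 0.77 ± 0.22, adjusted p = 0.0714. Fat tissue genes had no call of 10 and a median of 0.85, with mean levels of 8.76, 8.54 and 9.62 against 9.63, 10.11 and 9.55: Pik3cd+/- arrays 1 and 2 were lower than the other 4. Adipoq, adiponectin, had 556, 463 and 1605 intensity units in the Pik3cd+/- arrays and 1787, 3028 and 1438 in the Pik3cd-/- arrays (1.40 ± 1.27, adjusted p = 0.567), and Thrsp, a regulator of fat synthesis, had 137, 111 and 377 against 413, 1140.4 and 753 (1.92 ± 0.77, adjusted p = 0.175). Smooth muscle genes had no call of 13, a median of 0.30 and 13 of 13 positive, with mean levels of 8.92, 9.04 and 8.80 against 9.30, 9.52 and 9.15. Pcp4 and desmin (Des) gave 1.19 ± 0.51 and 0.76 ± 0.36 (adjusted p = 0.198 and 0.253), while Myocd, the coactivator of smooth muscle genes, picked out after its value was seen, fell (-0.97 ± 0.18, adjusted p = 0.0253). Oviduct genes had no call of 19, a median of 0.075 and levels of 6.93, 8.21 and 6.85 against 7.27, 7.76 and 6.92, where Fam183b had 64.9, 226 and 48.2 against 39.6, 39.0 and 50.3, high in Pik3cd+/- array 2 alone. Collagen and matrix genes had 1 call of 36 (Col18a1) and a median of 0.19, with the protease Adamts5 at -0.77 ± 0.21, adjusted p = 0.062. Stroma, endothelial and blood genes had no call of 17, 21 and 4, with medians of 0.052, 0.025 and 0.096. Decorin (Dcn) gave 0.59 ± 0.22, Wnt5a 0.49 ± 0.17 and the lymphatic marker Lyve1 0.60 ± 0.23 (adjusted p = 0.151, 0.112 and 0.166). The part of fat, surface epithelium or muscle in the samples was not tested.

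**Figure D4:**
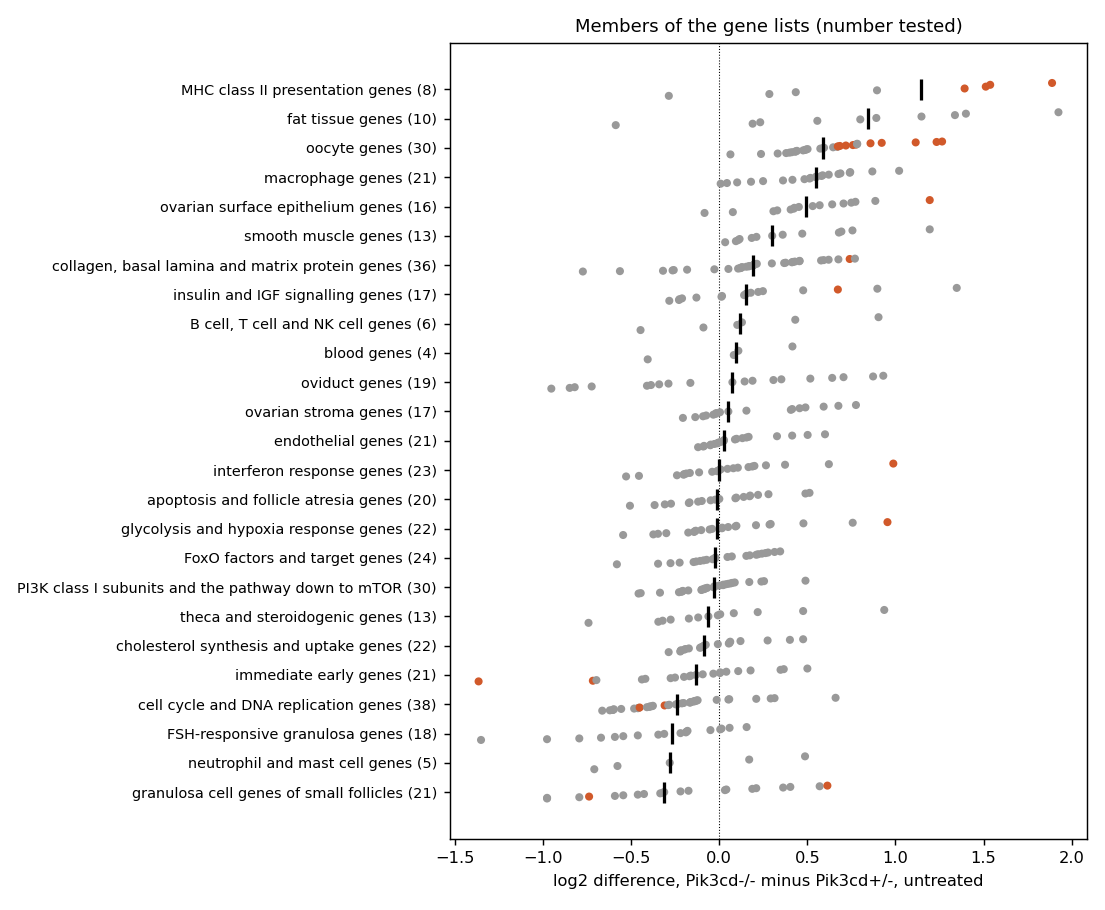
Differences between the genotypes in untreated ovaries (x axis, log2, Pik3cd-/- minus Pik3cd+/-) of the tested members of 25 gene lists, 1 point per gene, with called genes in orange and the list median as a bar. Oocyte genes lie to the right of 0 throughout with 10 called, the 4 called MHC class II genes lie between 1.39 and 1.89, and the PI3K and FoxO lists are centred near 0 with none called. Of all genes tested, 2.18% were called.

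The called genes were then read in the treated ovaries, on arrays that the untreated comparison did not use. All comparisons share the estimate of the spread. There 526 genes were called after PMSG (4.14%), 2141 after E2 (16.8%) and 2440 in the average of both (19.2%). Of the 107 genes higher in untreated Pik3cd-/- ovaries, 106 had a positive difference in the average over PMSG and E2 and 95 (88.8%) were called higher there, where 8.92% of all genes were. Their median difference was 0.68 untreated, 0.55 after PMSG and 0.64 after E2, against 0.014 and -0.068 over all genes in the treated states. Of the 170 lower genes, 167 were negative in the average and 119 were called lower, where 10.3% of all genes were. Their medians were -0.59 untreated, -0.14 after PMSG and -0.51 after E2. In each treated state alone, 53 of the 107 higher genes were called higher after PMSG (3.09% of all genes) and 82 after E2 (4.85%). Of the lower genes 21 were called lower after PMSG (1.05%) and 123 after E2 (12%). In both treated states the arrays separated the same way in 82 of the 107, where 3.52% of all genes did so in the higher direction, and in 63 of the 170, where 4.68% did so in the lower. Deviations of same-numbered PMSG arrays correlated at 0.25 to 0.30 between the genotypes, and a block for them was added after the data were seen. With the replicate number as a block in these arrays 337 genes were called after PMSG (2.65%). Of the 107 higher genes 36 were then called higher (1.83% of all genes), and of the 170 lower genes 17 were called lower (0.818%).

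**Figure D5:**
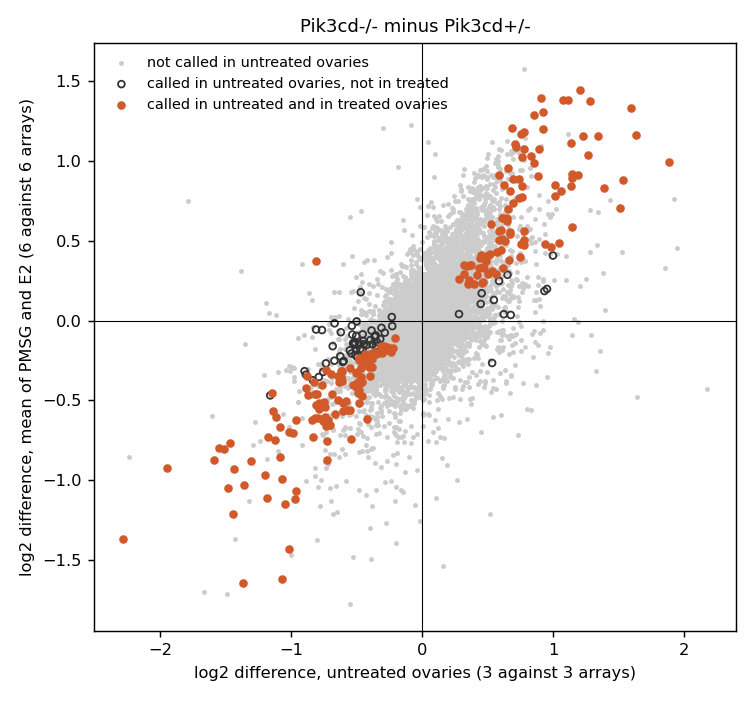
Difference between the genotypes in untreated ovaries (x axis, log2, 3 against 3 arrays) and in treated ovaries (y axis, log2, mean of PMSG and E2, 6 against 6 arrays) for 12711 genes. Of the called higher genes 106 of 107 lie above 0 on the y axis, and of the called lower genes 167 of 170 lie below 0. The point called in the opposite direction is Ddhd1.

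All 30 oocyte genes were positive after PMSG and after E2 too, 27 and 28 of them were called higher (3.09% and 4.85% of all genes were), and the medians were 1.02 and 0.91 against 0.59 untreated. Zp2 gave 1.44 ± 0.15 after PMSG and 1.13 ± 0.15 after E2 (adjusted p = 4.5e-04 and 0.00111), with means ± SD of 884 ± 88.8 against 2409 ± 233 and of 1095 ± 28.5 against 2453 ± 544 intensity units (n = 3). Ddx4 gave 1.21 ± 0.16 and 1.56 ± 0.16 (adjusted p = 0.00148 and 3.7e-04). Ccdc201, Khdc1a, Dppa5a and Gtsf1, next to Zp2, Zp3 and Ddx4 among the 10 shared calls with the smallest p in the treated average, gave 1.38 ± 0.13, 1.39 ± 0.12, 1.30 ± 0.12 and 1.18 ± 0.11 there. The remaining 3 of the 10 were Itga6, an integrin subunit (0.91 ± 0.080), Gda, guanine deaminase (0.85 ± 0.085), and the Ras effector Rassf4, which was lower (-1.07 ± 0.11).

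Among the other groups, the 8 tested MHC class II genes had 0 calls after PMSG, where 4.14% of all genes were called, with a median of 0.37. Of the 8, 5 were called higher and 1 lower after E2 (4.85% and 12% of all genes), with a median of 0.74. H2-Aa gave 0.56 ± 0.38, adjusted p = 0.492 after PMSG and 1.42 ± 0.38, adjusted p = 0.0211 after E2. The macrophage genes, positive throughout in untreated ovaries, had medians of -0.12 and 0.072. None of them was called after PMSG or E2, where 4.14% and 16.8% of all genes were. Fos was called lower in both states, at -1.68 ± 0.25, adjusted p = 0.00308 and -1.60 ± 0.25, adjusted p = 0.00198, and Myc passed after E2, at -0.94 ± 0.098, adjusted p = 3.7e-04 against -0.31 ± 0.098, adjusted p = 0.0938 after PMSG. The immediate early list had 12 of 21 called lower in the treated average (10.3% of all genes), with a median of -0.42. Cell cycle genes had medians of 0.029 and -0.081. Of the surface epithelium genes 2 of 16 were called higher after PMSG, or none with the block in the PMSG arrays, and 5 after E2 (3.09%, 1.83% and 4.85% of all genes), with medians of 0.30 and 0.36. The smooth muscle genes, 13 of 13 positive in untreated ovaries, were negative in 13 of 13 in the treated average (median -0.20). Of them 1 was called there, where 19.2% of all genes were, or none with that block. Of 23 interferon genes, 14 were called lower after E2 (12% of all genes), with a median of -0.70. None was called in either direction after PMSG (4.14% of all genes). FoxO targets had 12 of 24 called lower in the treated average, again beside 10.3% of all genes, with a median of -0.24 against -0.029 over all genes. Slc38a5, the largest fall, gave -0.75 ± 0.46, adjusted p = 0.426 after PMSG and -1.98 ± 0.46, adjusted p = 0.0121 after E2.

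Whether a genotype difference itself depended on the treatment was asked by the interactions, which share the untreated arrays. With limma, 0 genes passed for PMSG and 0 for E2, with smallest adjusted p-values of 0.0711 and 0.25. There were 1195 and 924 genes at an unadjusted p under 0.05. No gene's difference between the states passed this test, and for the list medians it was not tested. With the replicate number as a block in the PMSG arrays 3 genes passed for PMSG: Ntn4 (-1.81 ± 0.20, adjusted p = 0.00405), Asb4 and Ddhd1 (adjusted p = 0.00988 for each). With the block in all arrays none did, and the smallest adjusted p was 0.134. Ddhd1, a phospholipase of phosphatidic acid, and Asb4 had the smallest p for PMSG. Ddhd1 fell in untreated ovaries (463, 473 and 498 intensity units in the Pik3cd+/- arrays and 311, 239 and 262 in the Pik3cd-/- arrays, -0.81 ± 0.14, adjusted p = 0.0189), gave 0.50 ± 0.14, adjusted p = 0.0564 after PMSG (adjusted p = 0.0416 with the block in the PMSG arrays), and had an interaction of 1.31 ± 0.20, adjusted p = 0.0711. Asb4 gave -0.55 ± 0.17, adjusted p = 0.0927 untreated and -2.11 ± 0.17, adjusted p = 3.0e-05 after PMSG, with an interaction of -1.56 ± 0.25, adjusted p = 0.0711. The mitochondrial carrier Slc25a42 fell in untreated ovaries (-0.81 ± 0.12, adjusted p = 0.0134) and gave 0.11 ± 0.12, adjusted p = 0.705 after PMSG (interaction 0.92 ± 0.17, adjusted p = 0.152). Lrp11 and Pawr were the other 2 of the first 5 for PMSG, with interactions of -1.52 ± 0.27 and -0.65 ± 0.11. For E2 the first 5 were Ddhd1, Coq8a, Itih2, Ntn4 and Stox2, with adjusted p-values from 0.25 to 0.386. Coq8a gave -0.058 ± 0.094 untreated and -0.86 ± 0.094 after E2, Itih2 0.16 ± 0.27 and -1.96 ± 0.27, and Ntn4, netrin 4, 0.52 ± 0.25 and -1.13 ± 0.25.

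Strain differences near the targeted locus can travel with the genotype on a mixed background. Within 50 protein-coding genes on either side of Pik3cd, 62 were tested and 1 was called (1.61%), Clstn1, a calsyntenin, at 0.35 ± 0.080, adjusted p = 0.0363. Clstn1 lies next to Pik3cd and was also called in the treated average (0.23, adjusted p = 0.0119), where 19.2% of all genes were. Of the other tested genes within 3 genes, Slc25a33 (-0.53) and Spsb1 (-0.72) were called in that average, and Tmem201, Ctnnbip1 and Lzic were not. The part of strain differences was not tested. Over chromosome 4, 16 of 778 genes were called (2.06%), against 2.18% over all genes.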

How the data were processed

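The deposited values of all 18 arrays are an intensity for each probe set on a linear scale, made by the authors with MAS5 per the submitters' processing notes, whose version and scaling are not given in the sources used here. The distributions of the arrays were close at every quantile, and whether the authors had also normalized the deposited values between arrays is not given there either. Total RNA was extracted with Trizol and hybridised as biotin-labelled cRNA, per the labels' protocols. All 18 columns were matched by their labels. Of 45101 probe sets, 64 controls, 9160 without a symbol and 932 with several were left out. The remaining 34945 carry 1 symbol, and 34741 of them matched RefSeq. The symbols are those of the platform annotation.

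Values were taken as log2 of the intensity plus 8.58, the 10th percentile, without further normalization, since array medians were close. The probe set with the highest mean over all arrays stood for its gene, and genes with a group mean above the median (log2 of 5.87) were tested. Groups were taken from the titles. limma 3.58.1 (R 4.3.3) fitted 6 group means, with eBayes with trend, two-sided tests and Benjamini-Hochberg adjustment over 12711 genes. The p-values measure the spread between these arrays. Same-numbered PMSG arrays of both genotypes had correlations of their deviations from the group means of 0.25, 0.25 and 0.30, and were taken as paired from these data, since the labels give no reason for a pairing. A block for them was added after the data were seen. Among the untreated arrays, Pik3cd+/- array 3 and Pik3cd-/- array 1 reached 0.39. Correlations of this size therefore do not by themselves show a pairing. Summaries used Python 3.11.15 and pandas 2.3.3. The fit was also run on simulated data with independent noise, the same spread for a gene in all groups, and no array standing apart. It recovered 37 of 66, 60 of 66 and 65 of 65 changes of 0.5, 1 and 2 on the log2 scale, and 10 of 172 calls were false. This run cannot show how the calls depend on arrays that stood apart.

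Named genes were Pik3cd, the 12 largest called rises and falls whose arrays did not overlap, up to 3 members of each list with the smallest p, a fixed panel, the 5 smallest interaction p-values per treatment and up to 10 calls shared with the treated average. Genes said to be picked out after their values were seen, and list members given beyond these, are outside the rule. The members and all gene lists were chosen with earlier results of these data known. Alternatives were other pseudocounts, filters, normalization and probe set choices, eBayes without trend, the untreated arrays alone, a replicate block and leaving out arrays. Some members of the lists and panel are not analysed here.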

Additional observations from a re-analysis of the deposited data

How the results depend on the processing

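Against the 277 called genes (107 higher, 170 lower), quantile normalization gave 425 (164 and 261, 274 of them shared with the 277) and the untreated arrays fitted alone gave 109 (67 and 42, 64 shared). The other pseudocounts, filters, eBayes without trend and probe set choices gave 199 to 302. Leaving out 1 array gave 1 to 676 calls, 1 to 155 higher and 0 to 521 lower. Without both arrays that stood apart, an alternative chosen after seeing the data, 1 gene was called, 1 higher and 0 lower. The interaction with PMSG had 2 calls with a pseudocount of 64 and 3 with quantile normalization. The replicate numbers did not pair the untreated arrays: same-numbered arrays of both genotypes had correlations of deviations of -0.35, 0.14 and -0.034, and those after E2 had 0.079, -0.17 and 0.042. With the replicate number as a block, 187 genes were called, 70 of them higher and 117 lower, and the interaction with E2 had 1 call. With the block in the PMSG arrays alone, added after seeing the data, 337 genes were called after PMSG in place of 526, 3 interactions with PMSG passed, and 2233 genes were called in the treated average in place of 2440. The 48 named calls kept their sign under every alternative in which they were tested. With quantile normalization 48 of 48 stayed called, with the block 39, with the untreated arrays alone 20, without Pik3cd+/- array 2 none and without Pik3cd-/- array 2 it was 2. Signs turned only among named genes that were not called. With the probe set of highest variance Mcl1 was 0.12 and Igf1 -0.61, and with quantile normalization Igf1 was -0.0038. With 1 array left out, Inhba ran from -1.32 to 0.37, Inhbb from -0.93 to 0.21, Igf1 from -0.060 to 0.066, Star from -0.16 to 0.22, Hsd3b1 from -0.16 to 0.066, Pik3ca from -0.033 to 0.093, Coq8a from -0.14 to 0.0088 and Itih2 from -0.061 to 0.41. Without both arrays that stood apart Inhba was 0.48, Inhbb 0.15, Igf1 -0.11, Hsd3b1 0.058 and Pik3ca -0.051. With the filter at the 70th percentile no blood gene was left. Of 424 list medians under the alternatives, 413 stayed within the spread between arrays. That spread includes the arrays that stood apart, so for the lists in which they did, staying within it says little. The cause of these changes was not tested, beyond the smaller number of arrays in the fits that leave some out. Probe sets near the background of the array limit the dim genes, among them the 3 Pik3cd probe sets under the filter.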
